A study of Rattus norvegicus with 24 samples.

Results

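Nfix, Prrx1, Tcf7l1, Mxd3 and Taf6 encode transcriptional regulators whose mRNA was lower in brain endothelial cells exposed to silver particles of 10 nm coated with polyvinylpyrrolidone (PVP). The 5 genes were chosen for those falls, so their values in that group are a description and carry no test. The members are the probes that the platform annotation gives to these 5 symbols, which came to 5 of the 22523 probes on the array, 1 for each gene, and 5 of 13337 genes with a symbol there. All 5 passed the detection filter, which kept 2774 probes.

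RNA was measured on Illumina rat BeadChips in RBEC4 cells, a rat line derived from the endothelium of brain microvessels, after 18 h with 1 ppm of silver particles added at 95% confluence. The groups were untreated cells (control, 4 arrays) and cells given PVP-coated particles of 10 nm (PVP10) or 75 nm (PVP75), or citrate-coated particles of 10 nm (citrate10) or 75 nm (citrate75), with 5 arrays each. Coating material without silver and silver ions alone were not analysed here, so each particle was compared with untreated cells or with another particle. The labels number the arrays but do not tie them to separate cultures, so a p-value reflects the spread among the arrays alone, and that spread may be technical. All groups come from 1 cell line, and in bulk RNA fewer expressing cells and less RNA per cell cannot be told apart.

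The 5 proteins act at different levels of transcription. NFIX belongs to the nuclear factor I family, which binds DNA as dimers and is known for roles in neural and muscle development. PRRX1 is a paired-related homeodomain protein of mesenchyme and limb buds, and TCF7L1 is a member of the TCF/LEF family that binds Wnt target genes and acts largely as a repressor when beta-catenin is absent. MXD3 pairs with MAX and competes with MYC for E-box sequences. TAF6 is a histone-fold subunit of TFIID, the complex that recognises core promoters for RNA polymerase II. The first 3 are developmental regulators, whereas TAF6 is a general initiation factor and MXD3 is best known from cell proliferation, so the 5 genes do not form 1 developmental group. They were also not lost, since Nfix, Prrx1, Tcf7l1 and Taf6 were detected on all 24 arrays and Mxd3 on 2 of 5 PVP10 arrays and every other array.

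Below are the promoter windows of the gene lowest in PVP10 relative to control and of 2 further genes lower in PVP75 than citrate75. They show how unlike these windows are. Sequences are from RefSeq on GRCr8 and read 5′ to 3′ on the gene's strand. Each covers 250 bases before and 50 bases after the start used for that gene. For Nfix and Prrx1 the window lies wholly inside the annotated gene, which begins at 40259873 in Nfix and at 78205379 in Prrx1. The Tcf7l1 window also lies inside its gene. Of the 5, only the Mxd3 window was set at the outer end of its annotated gene (9306552). All 5 genes were matched by symbol. Capitals mark GGGCGG or its complement (the GC box bound by SP factors) and, in Prrx1, CTTTGAT (a TCF/LEF motif).
Nfix, chr19:40260089-40260388, plus strand: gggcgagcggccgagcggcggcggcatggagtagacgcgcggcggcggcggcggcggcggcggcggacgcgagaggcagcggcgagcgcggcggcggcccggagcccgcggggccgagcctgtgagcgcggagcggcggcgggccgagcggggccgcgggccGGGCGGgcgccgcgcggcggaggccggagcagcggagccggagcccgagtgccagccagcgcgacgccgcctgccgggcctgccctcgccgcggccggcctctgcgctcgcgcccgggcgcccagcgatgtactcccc
Prrx1, chr13:78204024-78204323, minus strand: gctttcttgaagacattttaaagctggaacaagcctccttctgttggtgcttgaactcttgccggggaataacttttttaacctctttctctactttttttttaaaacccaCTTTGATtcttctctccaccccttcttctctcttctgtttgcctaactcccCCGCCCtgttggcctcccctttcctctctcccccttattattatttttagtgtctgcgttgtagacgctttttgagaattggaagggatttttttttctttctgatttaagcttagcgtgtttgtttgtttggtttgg
Mxd3, chr17:9306302-9306601, plus strand: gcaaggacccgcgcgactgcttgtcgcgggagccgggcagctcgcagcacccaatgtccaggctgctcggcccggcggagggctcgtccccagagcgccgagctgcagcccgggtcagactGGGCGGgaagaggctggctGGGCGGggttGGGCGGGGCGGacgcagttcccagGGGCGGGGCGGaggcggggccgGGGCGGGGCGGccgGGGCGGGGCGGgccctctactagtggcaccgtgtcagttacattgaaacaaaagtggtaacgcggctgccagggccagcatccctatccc

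The share of G and C was 86.0% in Nfix, 41% in Prrx1, 73.3% in Mxd3, 75.3% in Tcf7l1 and 48.3% in Taf6. The median was 51.7% over 33469 rat promoters and 61.7% over those of genes kept on this array. A GC box was found on either strand in all 5, with 10 matches in Mxd3, some sharing a base, and 1 in each of the others. It was also found in 33.1% of all promoters and in 63.9% of 1677 promoters of genes kept on this array. CTTTGAT occurred in Prrx1 alone among the 5, in 3.63% of all promoters and in 3.28% of those of kept genes. The E-box CACGTG occurred in 0 of the 5, against 6.42% of all and 10.7% of kept genes' promoters, and the homeodomain motif TAATTA in 0, against 5.36% and 1.55%. Of the metal response motifs, TGCGCNC was found in Nfix and Tcf7l1, against 14.1% of all and 27.9% of kept genes' promoters, and TGCACNC in 0 of the 5, against 12.2% and 12.8%. The antioxidant response motif TGACNNNGC was found in Tcf7l1, against 12.1% and 14.8%. These matches describe letters in a window and show no binding.

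Levels are given as background-corrected, quantile-normalized log2 intensities and compared only within a gene. Nfix read 8.12, 8.12, 8.05 and 8.44 on the control arrays. In PVP75 it read 7.94, 6.92, 7.46, 7.08 and 7.11, and in PVP10 6.16, 6.06, 5.72, 5.97 and 5.37. The citrate arrays overlapped the controls, at 8.37, 8.15, 8.22, 7.99 and 8.05 in citrate10 and 8.26, 7.93, 8.12, 8.17 and 8.42 in citrate75. The means came in the order control (8.18 ± 0.175, SD, n = 4), citrate75 (8.18 ± 0.179, n = 5), citrate10 (8.16 ± 0.148, n = 5), PVP75 (7.30 ± 0.409, n = 5) and PVP10 (5.86 ± 0.315, n = 5). The first 3 overlapped, PVP75 overlapped citrate75 through a single array (7.94), and PVP10 lay below all other arrays. Nfix had the lowest PVP10 value of the 2774 probes relative to control, at 19.9% of the control level.

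Prrx1, the mesenchymal homeobox gene, read 9.47, 9.40, 9.39 and 9.78 in controls. Its PVP75 values were 8.89, 8.63, 8.67, 8.25 and 8.73, and those of PVP10 were 7.60, 7.50, 7.54, 7.58 and 7.50, the tightest group of the 5 (SD 0.0461, n = 5). Citrate75 arrays were at 9.59, 9.58, 9.33, 9.52 and 9.58, with 1 of 5 below every control array. Citrate10 arrays were at 9.49, 9.23, 9.12, 9.08 and 9.09, with 4 of 5 below every control array. The order was citrate75, control, citrate10, PVP75 and PVP10, in which citrate10 overlapped both groups above it and PVP75 overlapped none. In the fit, PVP10 stood at 25.7% of the control level.

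Tcf7l1, the repressor of Wnt target genes, showed the smallest PVP10 difference of the 5 (44.1% of the control level). Control arrays read 9.36, 9.46, 9.41 and 9.60. PVP75 arrays read 9.13, 9.10, 9.20, 9.07 and 8.70, and PVP10 arrays 8.25, 8.11, 8.05, 8.46 and 8.41. Citrate75 arrays read 8.94, 9.32, 9.46, 9.37 and 9.10, with 3 of 5 below every control array, and citrate10 arrays read 9.59, 9.50, 9.18, 9.48 and 9.55. PVP75 thus overlapped both citrate groups but not control, and PVP10 overlapped no group.

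Mxd3, the MAX partner, and Taf6, the TFIID subunit, were measured on the same arrays. The Mxd3 levels were 6.54, 6.35, 6.27 and 6.41 in control, 5.65, 5.93, 5.84, 5.76 and 5.77 in PVP75 and 4.87, 5.02, 4.62, 5.01 and 4.90 in PVP10. Citrate10 arrays read 6.35, 6.31, 6.41, 6.25 and 6.31 and citrate75 arrays 6.43, 6.39, 6.51, 6.36 and 6.45, so the 3 upper groups overlapped and the PVP groups formed separate steps below them. Taf6 levels were 6.91, 7.14, 6.99 and 6.70 in control, 6.66, 6.57, 6.61, 6.51 and 6.19 in PVP75 and 5.69, 5.44, 5.84, 5.80 and 5.56 in PVP10. Its citrate10 arrays read 6.99, 6.99, 6.73, 7.002 and 6.88 and its citrate75 arrays 7.26, 7.20, 7.09, 7.09 and 6.82. The highest PVP75 array of Taf6 (6.66) stood just under the lowest control array (6.70), and PVP10 lay below both. In the fit, PVP10 stood at 35.2% of the control level for Mxd3 and 41.8% for Taf6.

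**Figure D1:**
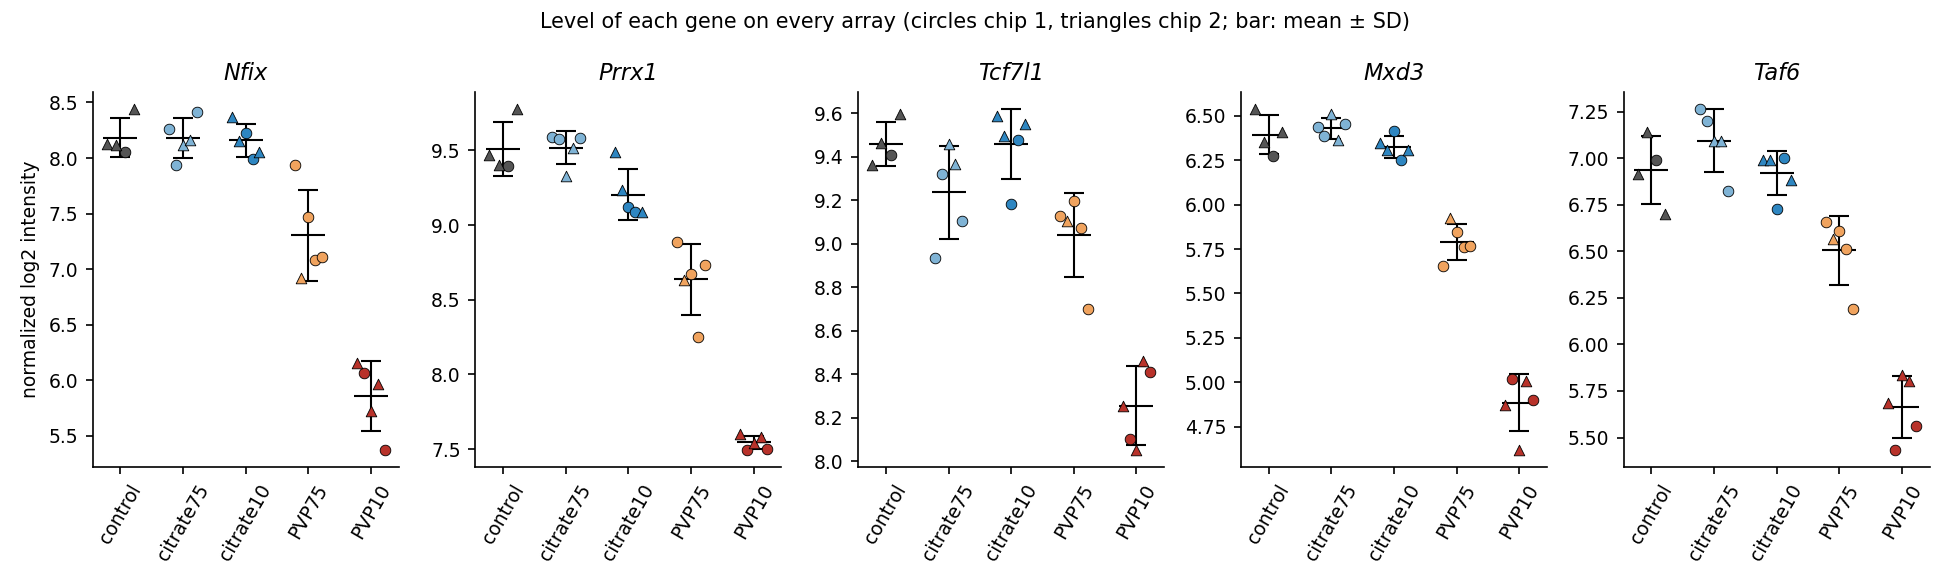
Normalized log2 intensity of each gene on every array, by group, with circles for chip 1, triangles for chip 2 and bars for mean ± SD (control n = 4, others n = 5); each panel has its own axis. In each panel the 5 PVP10 arrays lie below every other array, with PVP75 means between them and the control mean.

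The deposited intensities, before any correction, had the same order of the PVP groups. Nfix averaged 380 ± 25.5 (SD, n = 4) in control, 234 ± 62.0 (n = 5) in PVP75 and 127 ± 11.8 (n = 5) in PVP10. The median probe of an array read between 84.3 and 94.3, so Mxd3 in PVP10, at 97.3 to 104, stood close to background, against 156 to 176 in control. Taf6 read 111 to 127 in PVP10 and 180 to 225 in control. The size of a change depended on the background correction. Without it the PVP10 value relative to control was -0.62 for Mxd3 in place of -1.50, -0.65 for Taf6 in place of -1.26 and -1.47 for Nfix in place of -2.33 on the log2 scale.

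**Figure D2:**
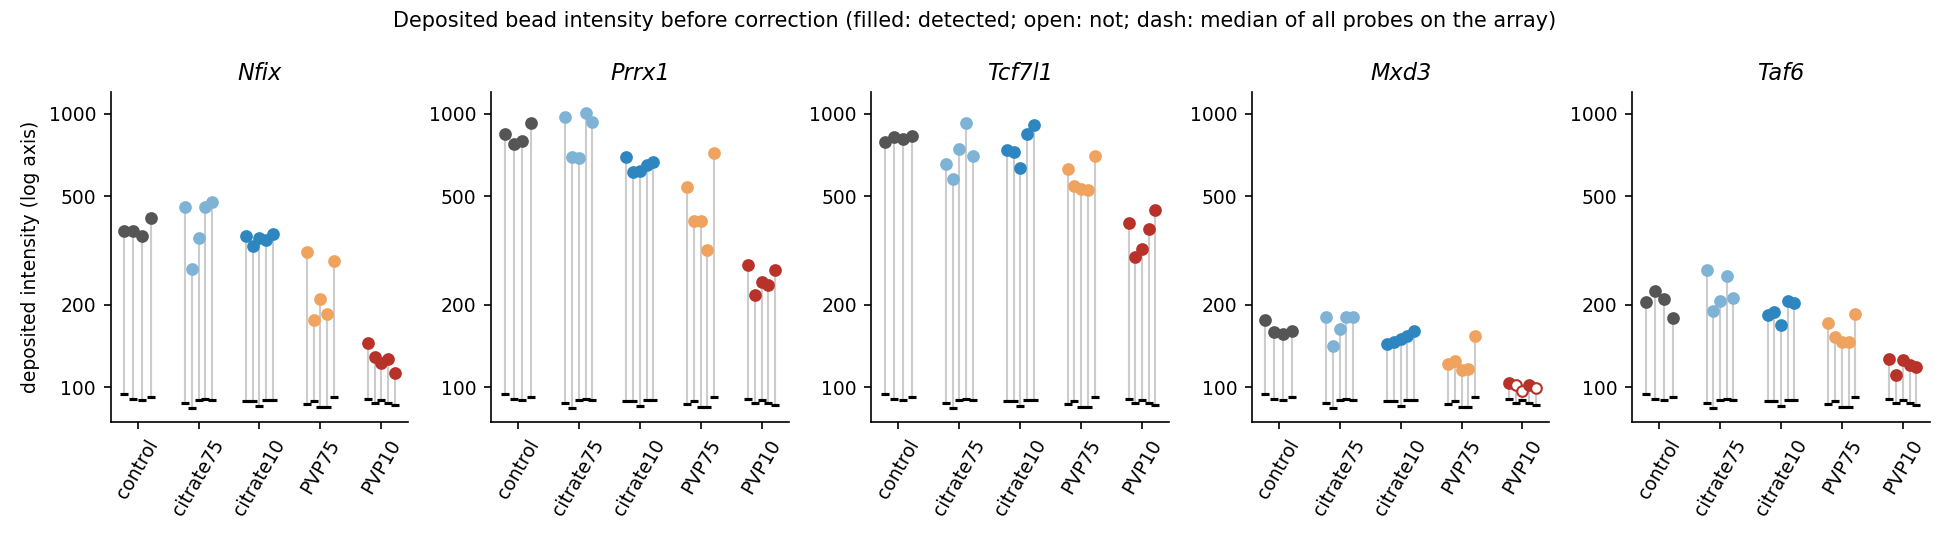
Deposited bead intensity of each gene on every array, on a log axis, joined by a line to the median of all probes on that array (dash), with filled points detected and open points not detected. Prrx1 and Tcf7l1 stay well above the dash in every group, while Mxd3 in PVP10 reads 97.3 to 104 and is detected on 2 of 5 arrays.

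PVP10 values relative to control were log2 fold changes of -2.33 (Nfix), -1.96 (Prrx1), -1.50 (Mxd3), -1.26 (Taf6) and -1.18 (Tcf7l1), with standard errors (SE) between 0.0874 and 0.162. PVP10 and control arrays did not overlap for any of the 5, as for 18% of all probes in that direction. The genes were picked by this contrast and nothing is read from it. PVP10 also stood below PVP75, by a log2 difference of -1.45 for Nfix, -1.11 for Prrx1, -0.91 for Mxd3, -0.88 for Taf6 and -0.84 for Tcf7l1, which uses the same PVP10 arrays and is likewise untested.

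The comparison of PVP75 with citrate75 asks whether the coating mattered at the large size. Its group means use none of the arrays that chose the genes. The chip term and the spread, and so the SE and p-values, come from all 24 arrays. The genes were also chosen with earlier results of these data known, so the comparison is not fully separate from the choice. Prrx1, Nfix, Mxd3 and Taf6 fell, and Tcf7l1 did not pass the test. Prrx1 was 1.83-fold lower in PVP75 (log2 fold change -0.87, SE 0.104, limma adjusted p = 9.92e-07) and lay below every citrate75 array on 5 of 5 PVP75 arrays. Nfix was 1.83-fold lower (-0.87, SE 0.153, adjusted p = 0.000303), below every citrate75 array on 4 of 5. Mxd3 was 1.55-fold lower (-0.64, SE 0.0828, adjusted p = 4.48e-06) and Taf6 1.48-fold lower (-0.57, SE 0.104, adjusted p = 0.000468), each without overlap. Tcf7l1 differed by -0.17, with a 95% interval from -0.38 to 0.04 (adjusted p = 0.316).

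Thus 4 of 5 genes were called lower, that is with a Benjamini-Hochberg adjusted p under 0.05 over the 2774 probes, against 7.5% of all probes called lower and 14.1% called in either direction in this comparison. The groups did not overlap for 3 of 5, against 3.82% of all probes in that direction. By size of fall, Nfix ranked 6, Prrx1 7, Mxd3 10 and Taf6 19 from the lowest of 2774, and Tcf7l1 ranked 560. All probes are not a matched background, since the 5 genes were picked for large falls in PVP10. Over the 2769 kept probes that are no member, the PVP75 arrays lay 34.3% to 43.7% of the way from control to PVP10. These shares and ranks thus do not show a response particular to the 5 genes. The arrays lay on 2 BeadChips. On chip 1, with 4 PVP75 and 3 citrate75 arrays, the log2 fold changes were -0.94 for Prrx1, -0.80 for Nfix, -0.67 for Mxd3 and -0.60 for Taf6, and all 4 passed. Chip 2 held 1 PVP75 and 2 citrate75 arrays and gave -0.79, -1.22, -0.51 and -0.52, values whose PVP75 side has no spread of its own and which are given without a call. Without background correction Nfix was at -0.64, Mxd3 at -0.31 and Taf6 at -0.35, and each still passed.

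PVP75 was also compared with control, whose arrays are shared with the contrast that chose the genes, and there Prrx1, Nfix and Mxd3 fell. Prrx1 fell by 0.85 on the log2 scale (SE 0.116, limma adjusted p = 1.48e-05), Nfix by 0.88 (SE 0.171, adjusted p = 0.00165) and Mxd3 by 0.59 (SE 0.0924, adjusted p = 0.000103). Taf6 was at -0.38 (SE 0.116, adjusted p = 0.049996), at the threshold, and the call was lost in 21 of 34 alternative settings (adjusted p from 0.0142 to 0.71). Among fits that left out 1 array it held without control replicate 4, PVP10 replicates 2, 4 or 5, PVP75 replicates 1 or 3, citrate10 replicate 3 or citrate75 replicate 5, and was lost without any other array. Tcf7l1 was at -0.34 (SE 0.117, adjusted p = 0.0841). Counting Taf6, 4 of 5 were called lower, against 2.81% of all probes (5.48% in either direction). Arrays of the groups did not overlap for 5 of 5, against 4.97% of all probes with PVP75 lower. Chance differences among the 4 control arrays enter both this comparison and the choice of genes, so it is not independent of the choice. All probes are no matched background here either. Each chip held a single array on one side of this comparison, so the values within chips are given without a call. On chip 2, with 3 control arrays and 1 PVP75 array, they were -1.31 for Nfix, -0.91 for Prrx1, -0.51 for Mxd3 and -0.35 for Taf6. On chip 1, with 1 control array and 4 PVP75 arrays, they were -0.65, -0.76, -0.52 and -0.50. Without background correction Nfix was at -0.65, Mxd3 at -0.28 and Taf6 at -0.23 across both chips.

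**Figure D3:**
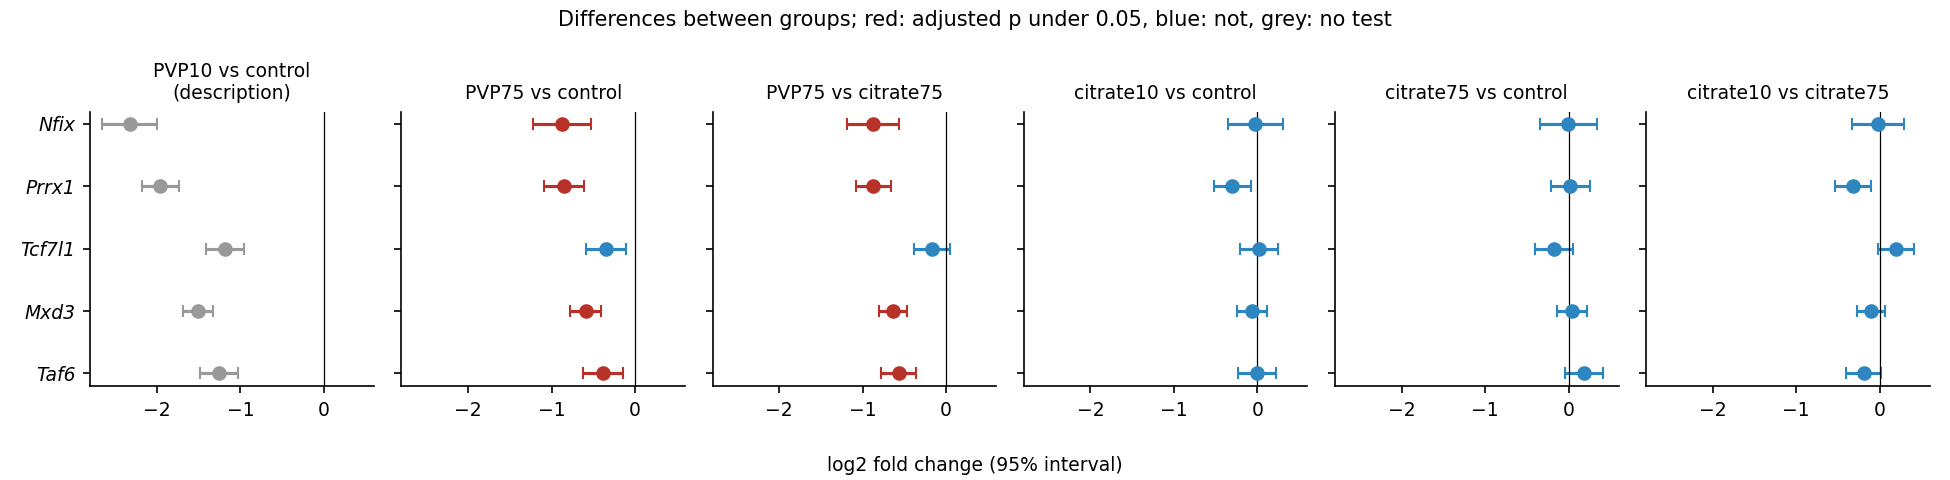
Log2 fold change of each gene with its 95% interval in 6 comparisons, in red where the adjusted p was under 0.05, in blue where it was not, and in grey for PVP10 against control, which chose the genes. Nfix, Prrx1, Mxd3 and Taf6 lie left of 0 in both PVP75 comparisons, and values with citrate particles lie between -0.32 and 0.19.

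The citrate particles ask whether silver of the same nominal size and dose gave these falls with another coating. In citrate10 against control 0 of 5 genes were called lower (limma), with 0% of all probes called lower and 0.036% in either direction. Of the 5, Prrx1 alone had an unadjusted p under 0.05, as did 116 of 2774 probes. Prrx1 was at -0.30 (95% interval -0.52 to -0.07, adjusted p = 0.996). Nfix was at -0.02 (interval -0.36 to 0.31), Mxd3 at -0.06 (-0.24 to 0.11), Taf6 at -0.00 (-0.23 to 0.22) and Tcf7l1 at 0.02 (-0.20 to 0.25). A fall in citrate10 as large as that of Nfix or Mxd3 in PVP75 lies outside these intervals, although these groups differ in particle size as well as coating.

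In citrate75 against control 0 of 5 were called lower, 0% of all probes were in either direction, and 0 of the 5 reached an unadjusted p under 0.05, although 241 of 2774 probes did. Values were 0.02 for Prrx1 (interval -0.21 to 0.25), -0.00 for Nfix (-0.34 to 0.34), 0.04 for Mxd3 (-0.14 to 0.23), 0.19 for Taf6 (-0.04 to 0.42) and -0.17 for Tcf7l1 (-0.40 to 0.06). The sizes of citrate particle were compared directly as well. In citrate10 against citrate75 0 of 5 genes were called lower, against 0.036% of all probes (0.144% in either direction). Prrx1 alone of the 5 had an unadjusted p under 0.05 (-0.32, SE 0.104, limma adjusted p = 0.187), as did 377 of 2774 probes.

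Relatives of these genes on the array were mostly below detection, as were most probes, of which the filter kept 12.3%. Nfia, Nfib and Nfic, the other nuclear factor I genes, were each detected on 0 of 24 arrays, as were Prrx2, Tcf7l2 and Lef1. Tcf7 had 0 probes on the array. Nfix, Prrx1 and Tcf7l1 were thus the measured members of their closest families, which does not show that the relatives were silent. The histone-fold partner of TAF6, Taf9, was detected on 24 arrays and did not pass in PVP75 against citrate75 (0.15, SE 0.0913, adjusted p = 0.315). Among 4 measured genes of the MYC/MAX network, 0 passed in that comparison, beside 14.1% of all probes in either direction. Max was at 0.06, Mxd4, a relative of Mxd3, at -0.15, Myc at -0.13 and the corepressor gene Sin3a, whose product MXD proteins recruit, at -0.22 (SE 0.0797, adjusted p = 0.0596). In PVP10 against control Myc (-0.80) and Sin3a (-0.88) were called lower, 2 of 4 genes beside 21.5% of all probes.

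Of 13 measured homeobox genes other than Prrx1, 1 fell and 0 rose in PVP75 against citrate75, beside 7.5% and 6.63% of all probes. The list median was a log2 fold change of 0.02, beside -0.01 over all probes. The gene that fell was Pou2f1, which encodes the octamer-binding factor OCT1 (-0.30, SE 0.0928, adjusted p = 0.0302). Adnp (0.29), Irx5 (-0.13), Tgif1 (0.08), Dlx1 (0.08) and Hoxb2 (-0.08) did not pass. In PVP10 against control 2 of the 13 were lower (Irx5 at -0.97 and Pou2f1 at -0.68) and 2 higher (Adnp at 0.61 and Hoxb8). Over all probes, 21.5% were called lower and 20.2% higher there.

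Of 18 measured genes of the TCF/LEF and Wnt list other than Tcf7l1, 4 fell and 1 rose in PVP75 against citrate75, beside 7.5% and 6.63% of all probes. Bcl9l, a coactivator of beta-catenin, fell by 0.59 (SE 0.132), the corepressor gene Ctbp1 by 0.35, the cyclin gene Ccnd1 by 0.33 and Ctnnbip1, an inhibitor of beta-catenin, by 0.33. The kinase gene Hipk2 rose by 0.37, and the Wnt receptor kinase gene Ryk did not pass (-0.22). The list median was -0.01, beside -0.01 over all probes. In PVP10 against control 8 of the 18 were lower, among them Ctbp1 (-1.01), Ryk (-0.90) and Ccnd1 (-0.89), and 3 were higher, beside 21.5% and 20.2% of all probes.

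Of 16 genes of TFIID, SAGA and the initiation factors other than Taf6, 1 fell in PVP75 against citrate75, beside 7.5% of all probes. It was the TFIIH subunit gene Gtf2h4 (-0.48, SE 0.111, adjusted p = 0.00436). The others ranked by size were Trrap (-0.46, adjusted p = 0.0504), Gtf2h5 (-0.22), Supt7l (0.15), Taf9 and Taf8 (0.14), which did not pass. The list median was 0.03. In PVP10 against control 4 were lower and 5 higher, beside 21.5% and 20.2% of all probes. Gtf2h4 (-0.80) and Gtf2h5 (-0.33) were among the lower, and Supt7l (0.71) and Taf9 (0.45) among the higher.

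Of 32 other developmental transcription factor genes, 4 fell and 2 rose in PVP75 against citrate75, beside 7.5% and 6.63% of all probes, with a list median of -0.12. The nuclear receptor gene Pparg fell by 0.56 (SE 0.0886, adjusted p = 8.1e-05), the ETS factor gene Etv4 by 0.55, the orphan receptor gene Nr2f2 by 0.36 and the serum response factor gene Srf by 0.34. The helix-loop-helix inhibitor gene Id1 rose by 0.29, and Klf5, named here after its value was seen, by 0.27. Nfatc3 was at 0.39 (adjusted p = 0.0757). In PVP10 against control 16 of the 32 were lower and 4 higher, beside 21.5% and 20.2% of all probes, with a median of -0.30. Srf was at -1.11, Pparg at -1.39 and Etv4 at -0.90, while Nr2f2, found on 4 of 4 control arrays and on 0 of 5 with PVP10, was at least 1.32-fold lower.

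Proliferation genes were set beside Mxd3. Of 12 measured, 3 fell and 1 rose in PVP75 against citrate75, beside 7.5% and 6.63% of all probes. Bub1, which encodes a spindle checkpoint kinase, was lower by a log2 value of -0.46, and Kif22, a kinesin gene, changed by -0.31, while the cyclin gene Ccne2 rose by 0.36. Plk1, a mitotic kinase gene, was detected on 5 of 5 citrate75 and 0 of 5 PVP75 arrays and was at least 1.14-fold lower (adjusted p = 0.0141). The motor gene Kif2c (-0.19) and the checkpoint gene Bub1b (-0.19) did not pass. In PVP10 against control 7 were lower and 2 higher, beside 21.5% and 20.2% of all probes.

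**Figure D4:**
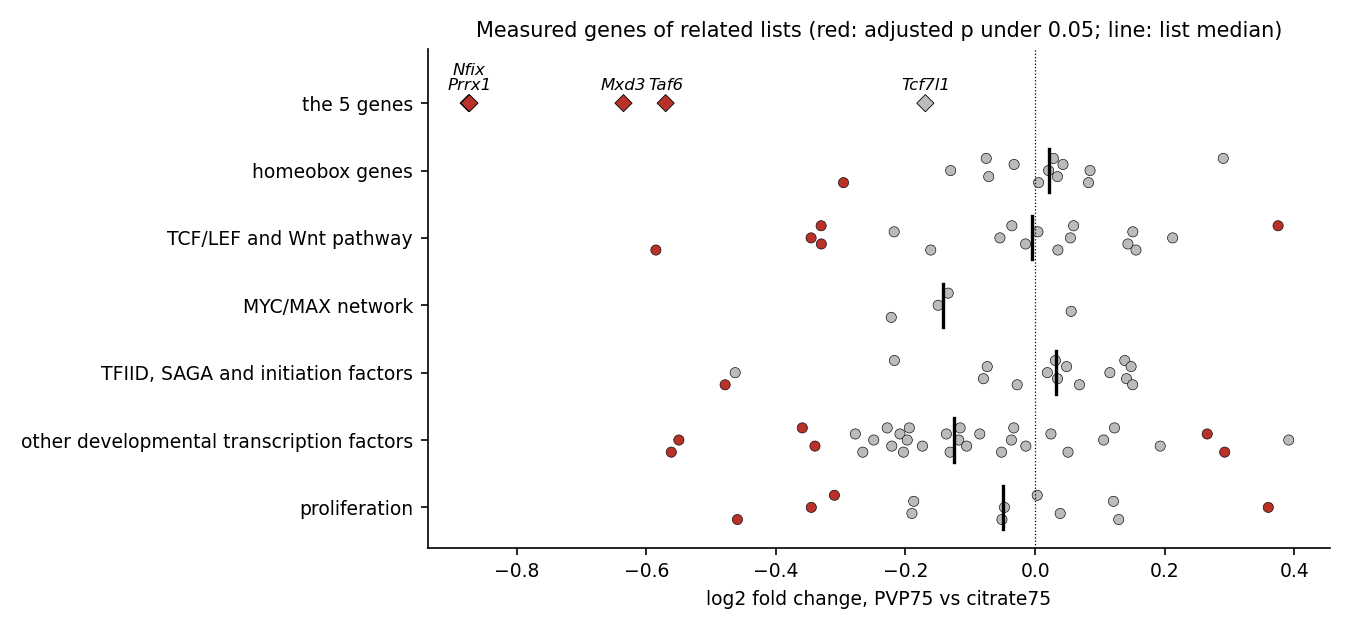
Log2 fold change in PVP75 against citrate75 for the 5 genes (diamonds) and for each measured gene of 6 related lists (points), in red where the adjusted p was under 0.05, with a line at each list's median. Prrx1, Nfix and Mxd3 lie lower than any gene of the 6 lists, and list medians lie between -0.14 and 0.03. The 5 genes were picked for their falls in PVP10, so their place beside the lists carries no test.

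Markers of cell types were looked at because PRRX1 is known from mesenchyme. The filter kept 12.3% of all probes, so an unmeasured marker was the usual outcome and says little about cell type. Of 10 fibroblast and mesenchyme markers 1 was measured, Twist1, a mesenchymal helix-loop-helix factor gene, which was at -0.22 in PVP75 against citrate75 (adjusted p = 0.172) and -0.45 in PVP10 against control (adjusted p = 0.00142). Col1a1, Col1a2, Col3a1, Pdgfra and Dcn were detected on 0 arrays. Of 11 endothelial markers on the array 2 were measured, Tjp1 on 24 arrays and Tie1 on 6, and Cdh5, Tek, Flt1 and Vwf were detected on 0. Tjp1, which encodes the tight junction protein ZO-1, was at -0.36 in PVP10 against control (adjusted p = 0.0029) and at -0.09 in PVP75 against citrate75 (adjusted p = 0.578). The falls of Twist1 and Tjp1 in PVP10 stand beside 21.5% of all probes called lower there. Of 7 pericyte and mural markers and 4 astrocyte markers 0 were measured, and of 5 neuron markers 1, Rbfox3, detected on 8 arrays. The part of cell makeup in the falls was not tested.

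The genes whose profiles lay closest were found by the root-mean-square (RMS) difference between log2 levels over 24 arrays, each gene taken relative to its own control mean, among 1940 other named genes. For Nfix they were Prrx1 (RMS 0.288), the spindle protein gene Fam83d (0.302) and the zinc importer gene Slc39a10 (0.36), against a median RMS of 1.16. For Prrx1 they were Tmem158 (0.19), Fam83d (0.204) and Slc39a10 (0.28). Tcf7l1 lay closest to the Golgi adaptor gene Gga1 (0.148), the membrane skeleton gene Epb41l1 (0.162) and the calmodulin-binding transcription activator gene Camta2 (0.17), with a median of 0.625. Mxd3 lay closest to Pparg (0.167), the adaptor gene Nck2 (0.181), which has 2 kept probes, and the RNA-binding protein gene Celf4 (0.197). Taf6 lay closest to Sipa1l1 (0.155), Maged1 (0.187) and Srf (0.189). The measure matches the size of the PVP10 difference as well as its shape, so it pairs genes that the choice of the 5 also favours.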

How the data were processed

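The deposited table gives, per the file headers, the signal intensity (linear) and a detection p-value of 22523 probes on each of 24 arrays. Its array medians differed (84.3 to 94.3), so it was treated as neither normalized nor corrected. The submitters' processing notes name GenomeStudio 2011.1; further steps were not stated. A second deposited table of intensity values had nearly equal medians (88.85 to 88.88) and served as an alternative. Columns were tied to samples through chip and position as the labels state them, with 0 unused.

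Background was corrected here by normexp, using the detection p-values (offset 16), then values were quantile normalized and put on a log2 scale in limma 3.58.1 under R 4.3.3. Probes with a detection p under 0.01 on at least 4 arrays were kept (2774, 12.3%); each array detected between 2128 and 2576. Keeping a probe can rest on the groups where it is high. The model held group and BeadChip for all 24 arrays (lmFit, eBayes; checked on simulated data), with Benjamini-Hochberg adjustment over kept probes per comparison. The number of arrays limits precision (median SE 0.105 to 0.117). Chip 1 had 1 control array, 2 of PVP10, 4 of PVP75, 2 of citrate10 and 3 of citrate75. The printed group means carry no chip adjustment, whereas percentages of the control level come from the fit and carry it.

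Symbols came from the platform annotation, which can be old; the brightest kept probe stood for its gene. Members and lists were chosen with earlier results of these data known. Named genes were the members, each list's measured genes up to 6 or else the 6 with the largest absolute change in PVP75 against citrate75, and each member's 3 closest profiles. For a gene undetected throughout a group, the dim side was set to the lowest level of any detected probe, array by array, unless the gene itself read higher, and the fold is given as at least that size.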

Additional observations from a re-analysis of the deposited data

Results flagged for a closer look

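In 3 of 25 sets of gene and group, 1 array stood apart from the rest of its group by Dixon's criterion, and chance flags about 5% of such sets. Prrx1 was low on citrate75 replicate 3 (9.33). Tcf7l1 was low on PVP75 replicate 5 (8.70) and on citrate10 replicate 3 (9.18). Without PVP75 replicate 5, the Tcf7l1 value against control was -0.27 in place of -0.34.

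The difference from control at 75 nm differed between the coatings, by the test of PVP75 against citrate75, for Nfix (-0.87), Prrx1 (-0.87), Mxd3 (-0.64) and Taf6 (-0.57).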

How the results depend on the processing

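Each comparison was repeated under 34 alternatives, 24 of which left out 1 array. For Nfix, Prrx1 and Mxd3 the calls in both PVP75 comparisons held under all of these except single-chip fits. The number of members called lower in PVP75 against control was 0 on chip 1 alone and 2 on chip 2 alone, and 3 to 4 with an array left out. In PVP75 against citrate75 it was 1 on chip 2 alone and 4 throughout with an array left out. Single chips held fewer arrays, and chip 2 had 1 PVP75 array and chip 1 had 1 control array, assumed to vary like the other groups, so these counts do not show whether the calls hold there. Tcf7l1 was called in PVP75 against control without the chip term (-0.42, adjusted p = 0.0219), and its adjusted p ranged up to 0.754 over the alternatives.

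The count of all probes called in PVP75 against control (152) was 70 without the detection filter, 6 on chip 1, 44 on chip 2 and 74 to 164 with an array left out, with 74 without control replicate 3 and 87 without control replicate 4. In PVP75 against citrate75 (392) it was 205, 127 and 14, and 285 to 440. Median scaling there gave 275 higher and 138 lower in place of 184 and 208, with 4 members still called lower. In citrate75 against control it was 0 to 1 with an array left out. In citrate10 against citrate75 (4) it was 8 with offset 50, 9 without background correction, 9 in the authors' values, 1 without the filter, 8 without the chip term, 1 on either chip and 1 to 17 with an array left out. The cause of these shifts was not tested.

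Same-numbered arrays deviated together at r between -0.2 and 0.308, so the numbers were not taken as pairs. With the replicate block, Taf6 in PVP75 against control was at -0.36 (adjusted p = 0.0618) and 3 members were called lower, and no other member's call changed. Background limits Mxd3 most.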

Other observations

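Over the 2769 kept probes that are no member, each array was placed on the line from the control mean (0%) to the PVP10 mean (100%), a measure chosen after the data were seen. The PVP75 arrays lay at 34.3%, 35.7%, 41.05%, 38.1% and 43.7%, and the mean log2 shift of the 5 genes on the same arrays was -0.44, -0.67, -0.54, -0.76 and -0.80. Citrate10 arrays lay between 3.05% and 13.7%, with shifts from -0.16 to 0.06, and citrate75 arrays between -4.21% and 4.41%, with shifts from -0.02 to 0.00. The 4 control arrays lay between -3.77% and 5.01%, centred on 0% by construction. The PVP10 arrays had shifts of the 5 genes from -1.75 to -1.53. The line was drawn from the PVP10 and control arrays, the same contrast that chose the genes.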
